A study of Mus musculus with 6 samples.

Results

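The genes described here are 10 scaffolds of the postsynaptic density: Shank1, Shank2 and Shank3, Dlg1, Dlg2, Dlg3 and Dlg4, and Dlgap1, Dlgap2 and Dlgap3. They were chosen by gene symbol from the platform annotation, and all 10 were found among the 19938 genes of the table. The probe set that stands for each gene was selected on its mean signal over the 6 arrays, as the brightest of those that pair with 1 symbol. Shank2 has 3 such probe sets, Dlgap1 has 2 and each of the other 8 genes has 1, so 13 probe sets were examined. The genes were proposed with earlier results of this same comparison known, so every difference between the groups below is a description and is used to support nothing.

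Wild type 129S6/SvEv mice of 8 to 12 weeks received either 20 mg per kg SAHA or vehicle, called saline in the sample titles, for 21 days. Frontal cortex was taken 1 day after the last injection, and its RNA was measured on 3 SAHA arrays and 3 saline arrays, each a whole-transcript array. SAHA, also called vorinostat, blocks the zinc-dependent deacetylases of histones and other proteins. The labels do not say that each array came from a separate mouse, so the errors and p-values reflect only how these samples vary, and much of that variation may be technical.

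The postsynaptic density is the protein mesh beneath the membrane of excitatory synapses, and these 3 families form its layers. Dlg proteins are membrane-associated guanylate kinases that lie closest to the membrane, where their PDZ domains bind the tails of NMDA receptors, potassium channels and adhesion proteins. Dlgap proteins bind the guanylate kinase domain of the Dlg proteins on one side and the PDZ domain of Shank on the other. Shank proteins form the deeper layer and reach Homer, cortactin and the actin cytoskeleton.

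Shank2 was the member that stood apart: its brightest probe set was higher in SAHA than in saline cortex, with no overlap between the groups, while its other two probe sets were not. None of the other 9 genes separated the groups on the deposited values, where the groups did not overlap for 23.9% of all genes. The differences of those 9 genes lay between -0.070 and 0.10 log2, with standard errors (SE) of the moderated limma fit between 0.056 and 0.097. SAHA signals exceeded saline signals for 5 of the 10 genes, where 52.9% of all genes were higher in SAHA, and fell short of them for the other 5. The median difference was -0.0022 over the 10 genes and 0.011 over all genes.

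limma with Benjamini-Hochberg adjustment over all genes called 0 of 19938 genes (0%), and 84 genes shared the lowest adjusted p of 0.116. At an unadjusted p under 0.05 lay 17.4% of all genes, and 1 of the 10 scaffold genes, Shank2. The groups did not overlap for 23.9% of all genes, and for 1 of the 10, again Shank2. Differences also followed signal over the whole array, with a median of 0.11 in the second lowest decile of signal and of -0.051 in the highest. Signals of different genes were not ranked against each other, since each probe set has its own response; for probe sets of 1 gene, only the change of their ratio between the groups is read.

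Before the members are taken in turn, 2 arrays need naming. Xist, the RNA of the inactive X chromosome, had a log2 signal of 4.63, 4.86 and 4.76 on the SAHA arrays, against 10.9, 4.86 and 4.88 on the saline arrays, so saline replicate 1 stood apart. The Y-linked gene Eif2s3y was at 9.18, 9.24 and 7.80 in SAHA and at 9.20, 9.25 and 9.20 in saline, which sets SAHA replicate 3 apart. Kdm5d and Uty were also lowest there, at 7.23 and 6.74. Some results are therefore also given without both arrays, where the text says so. Cortical excitatory neuron markers were present on every array, with mean log2 signals between 10.5 and 10.6 over Slc17a7, Neurod6, Camk2a, Tbr1 and Nrgn. In bulk tissue, fewer cells of a type and less RNA per cell cannot be told apart.

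Shank1, a neuronal scaffold of mature spines, had log2 signals of 9.41, 9.29 and 9.34 in SAHA, against 9.43, 9.34 and 9.44 in saline. The ranges overlapped, with SAHA replicate 2 the lowest of the 6. The difference was -0.051 (SE 0.062), with a 95% interval of -0.20 to 0.093.

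Shank2 encodes the scaffold of the family that is also abundant in cerebellar Purkinje cells, and human SHANK2 variants are linked to autism. On probe set 10559341, the brightest, it had log2 signals of 8.78, 8.64 and 8.70 in SAHA, against 8.33, 8.34 and 8.38 in saline. All 3 SAHA arrays lay above all 3 saline arrays, and the gap between the groups was wider than the range within either. The difference was 0.36 (SE 0.062), a level 1.28-fold higher in SAHA with a 95% interval of 1.16 to 1.42. In limma its adjusted p over all genes was 0.116, at rank 66 by p and rank 425 by the signed difference among the 19938 genes.

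The other two Shank2 probe sets gave a different picture. Probe set 10559343 had 7.35, 7.35 and 7.36 in SAHA, against 7.35, 7.45 and 7.31 in saline, a difference of -0.018 (SE 0.060). Probe set 10559333 had 6.70, 6.55 and 6.66 in SAHA, against 6.69, 6.65 and 6.73 in saline, a difference of -0.056 (SE 0.065). On neither were the groups separated, and both estimates had the opposite sign to the brightest.

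Within each array the log2 ratio of probe set 10559341 to 10559343 was 1.43, 1.29 and 1.35 in SAHA, against 0.98, 0.89 and 1.07 in saline. The ratio of 10559341 to 10559333 was 2.08, 2.10 and 2.05 in SAHA, against 1.64, 1.69 and 1.65 in saline. Both ratios were higher on every SAHA array than on any saline array, by 0.38 and 0.42 on average, so the probe sets of Shank2 changed unequally between the groups. This difference was not tested. In the annotation, 10559341 and 10559333 each list 1 transcript record, the same predicted one, and 10559343 lists 7 records including it. The mean of the 3 probe sets gave a difference of 0.095 (SE 0.057), which was at an adjusted p of 0.413 in limma.

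**Figure D1:**
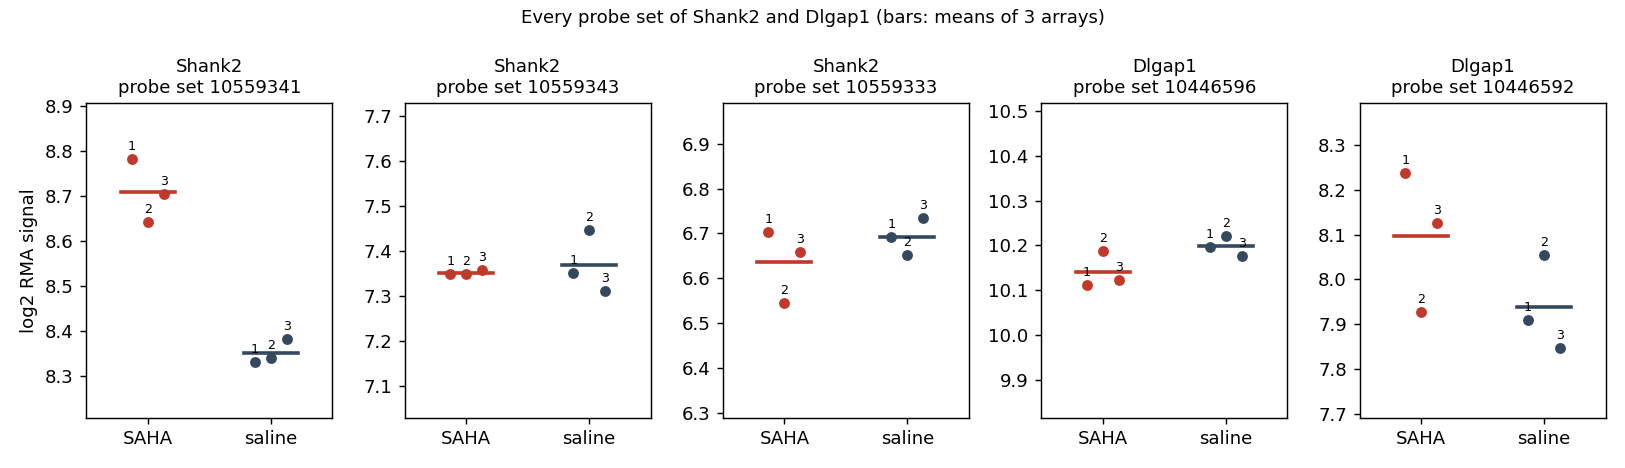
Log2 RMA signal of all 3 probe sets of Shank2 and both of Dlgap1 on each array, SAHA left and saline right; points are arrays numbered by replicate, bars are group means, and every panel spans the same log2 range. The groups are separated on Shank2 probe set 10559341 and overlap on the other 4 probe sets.

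The Shank2 value on its brightest probe set depended little on which arrays were used. Leaving out 1 array at a time gave differences between 0.32 and 0.39, and the 4 arrays left when both arrays named above were dropped gave 0.35 (SE 0.086). Quantile normalization and cyclic loess each gave 0.41, and median centring 0.32. Its call in limma did depend on the fit. It was not called after median centring, quantile normalization or cyclic loess, at adjusted p of 0.151, 0.182 and 0.181. Nor was it called with 1 array left out, at adjusted p between 0.143 and 0.244. Without both arrays the adjusted p was 0.389, and 0.477 with cyclic loess as well. With array weights it was 0.0998. It was called when genes below the median signal were left out, at an adjusted p of 0.0402. It was also called when the variance was allowed to follow the signal (0.0337) and when that trend was fitted robustly (0.0350). The fits that called it called 27, 28 and 31 genes, or 0.271%, 0.14% and 0.155% of the genes tested in each.

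Shank3, whose human counterpart is lost or disrupted in Phelan-McDermid syndrome, had log2 signals of 7.66, 7.33 and 7.47 in SAHA, against 7.35, 7.50 and 7.30 in saline. SAHA replicate 1 was the highest and the remaining SAHA arrays lay within the saline range, so the groups overlapped. The difference of 0.10 had the widest error of the members, at an SE of 0.097 and a 95% interval of -0.12 to 0.33, and it was 0.013 without SAHA replicate 1.

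**Figure D2:**
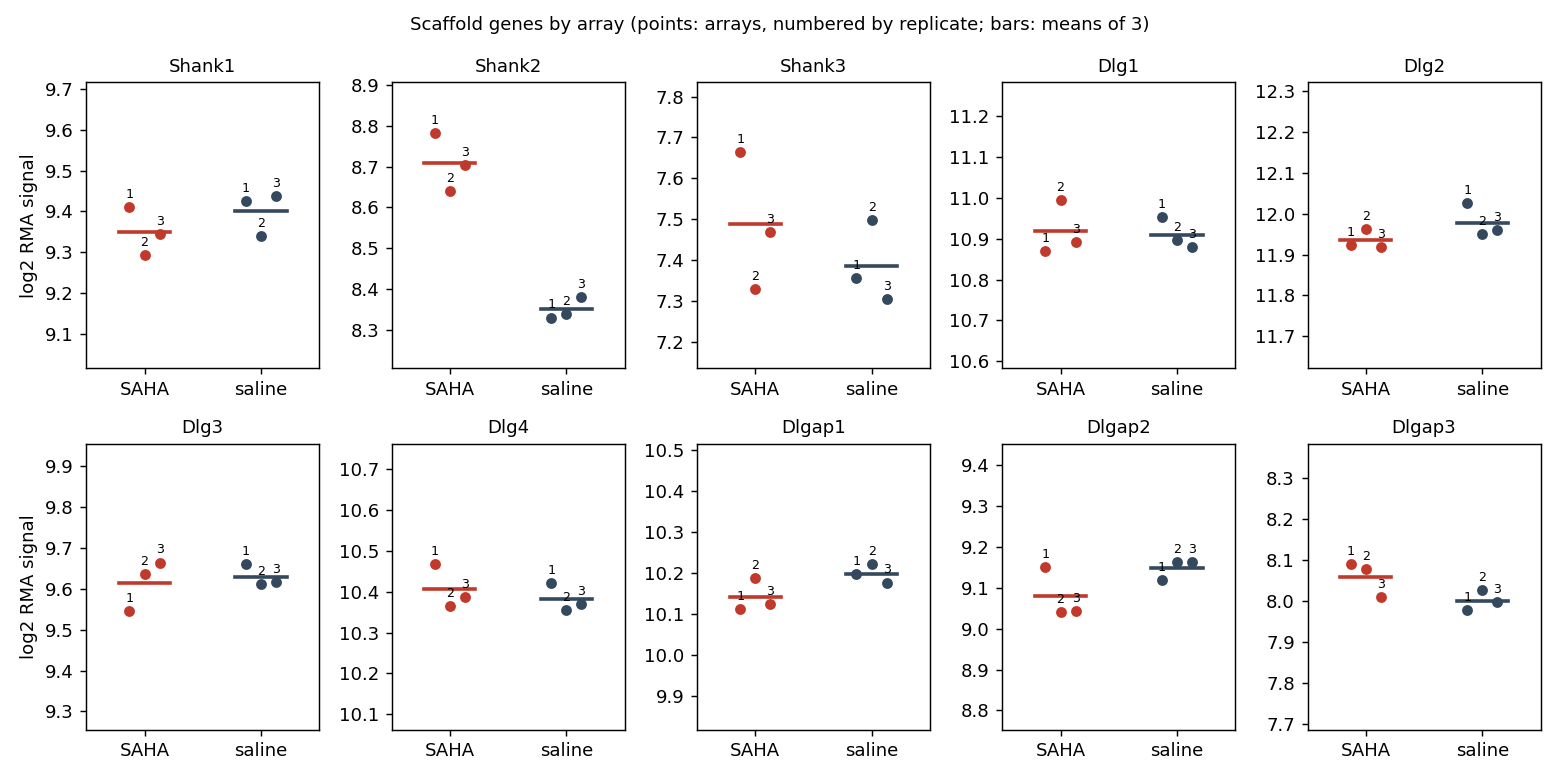
Log2 RMA signal of the brightest probe set of each scaffold gene on the 3 SAHA arrays (left) and the 3 saline arrays (right); points are numbered by replicate, bars are group means, and every panel spans the same log2 range. Shank2 is the member whose groups do not overlap, and Shank3 has the widest spread within SAHA.

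Dlg4 encodes the most studied Dlg scaffold of excitatory synapses, which anchors NMDA receptors and, through auxiliary subunits, AMPA receptors. It had log2 signals of 10.47, 10.37 and 10.39 in SAHA, against 10.42, 10.36 and 10.37 in saline. The groups overlapped and the difference was 0.025 (SE 0.059), with a 95% interval of -0.11 to 0.16.

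Dlg2, a close relative of Dlg4 that also holds NMDA receptors and potassium channels, had 11.92, 11.96 and 11.92 in SAHA, against 12.03, 11.95 and 11.96 in saline. SAHA replicate 2 lay above saline replicates 2 and 3. Its difference was -0.044 (SE 0.057).

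Dlg1, which traffics receptors and also acts in epithelial polarity, had 10.87, 11.00 and 10.89 in SAHA, against 10.95, 10.90 and 10.88 in saline. The difference of 0.0096 (SE 0.062) was the smallest in size of the members, and its 95% interval ran from -0.13 to 0.15.

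Dlg3, the X-linked family member and a scaffold of NMDA receptors in early development, had 9.55, 9.64 and 9.66 in SAHA, against 9.66, 9.61 and 9.62 in saline. The groups overlapped, at a difference of -0.014 (SE 0.060). Saline replicate 1, the array with high Xist, was the highest of the saline arrays, and without it the difference was 0.0011. Without both arrays named above it was -0.023 (SE 0.079).

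Dlgap1, the founding guanylate kinase-associated protein, had log2 signals of 10.11, 10.19 and 10.12 in SAHA, against 10.20, 10.22 and 10.18 in saline. SAHA replicates 1 and 3 lay below all saline arrays and SAHA replicate 2 within their range, at a difference of -0.058 (SE 0.056). Its second probe set, 10446592, had 8.24, 7.93 and 8.13 in SAHA, against 7.91, 8.06 and 7.85 in saline, a difference of 0.16 (SE 0.094) with overlapping groups. The estimates of the 2 probe sets thus had opposite signs. The annotation gives 14 transcript records for the brighter and 3 for the dimmer, 2 of them shared.

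Dlgap2 had 9.15, 9.04 and 9.04 in SAHA, against 9.12, 9.16 and 9.16 in saline. SAHA replicate 1 lay above saline replicate 1 and the other SAHA arrays below all saline arrays. The difference of -0.070 (SE 0.060) was the lowest of the members, with a 95% interval of -0.21 to 0.069.

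Dlgap3, the family member most abundant in striatum, whose loss in mice causes compulsive grooming, had 8.09, 8.08 and 8.01 in SAHA, against 7.98, 8.03 and 8.00 in saline. SAHA replicates 1 and 2 lay above all saline arrays and SAHA replicate 3 did not. The difference was 0.059 (SE 0.057). Markers of striatal medium spiny neurons varied between the arrays: the mean log2 signal over 8 of 10 listed markers was 7.82, 7.81 and 8.19 in SAHA, against 7.94, 7.84 and 8.24 in saline. Replicate 3 of each group was therefore the highest in these markers, while it was the lowest SAHA array and the middle saline array for Dlgap3. Of these markers 3 were higher and 5 lower in SAHA, and Tac1 differed by -0.43 (SE 0.13) with overlapping groups. The list median was -0.091, and -0.22 without both arrays named above. The part of these markers in the Dlgap3 value was not tested.

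**Figure D3:**
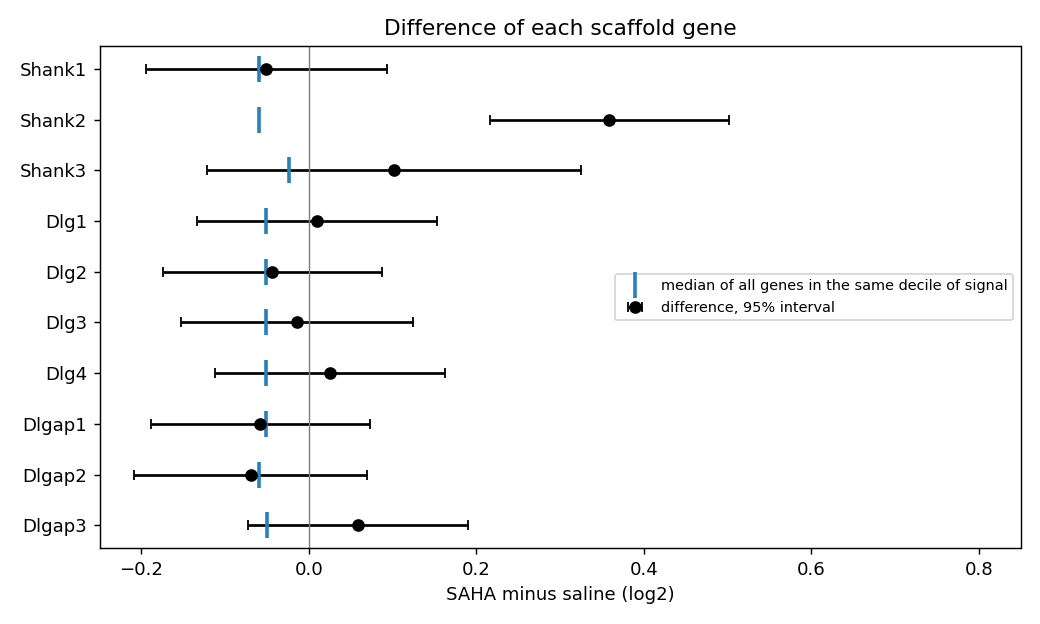
Difference in log2 signal, SAHA minus saline, of each scaffold gene with its 95% interval from the moderated fit over 6 arrays; blue ticks give the median difference of all genes in the same decile of signal. Each gene is shown on its brightest probe set. The interval of Shank2 lies above 0, and those of the other 9 genes contain 0. The dimmer Shank2 probe sets, not drawn, differed by -0.018 and -0.056.

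Beside the 9 genes whose groups overlapped, limma gave adjusted p between 0.562 and 0.949. Their 95% intervals reached no lower than -0.21 and no higher than 0.33, so differences of that size remain possible, and equality of the groups was not shown.

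The members were also read against genes of similar signal, since differences followed signal on these arrays. All 10 lay above the median signal of all genes, in deciles 7 to 10. In those deciles 28.2% of genes were higher in SAHA, with a median difference of -0.047. Of the 10 scaffold genes 8 lay above the median of their own decile, Dlgap1 and Dlgap2 being the exceptions, by -0.0069 and -0.011. The excess was 0.42 for Shank2, 0.13 for Shank3, 0.11 for Dlgap3 and 0.076 for Dlg4. For the others above their decile it lay between 0.0073 and 0.061.

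The scaling of the arrays also moved the smaller differences. After quantile normalization 8 of the 10 genes were higher in SAHA and after median centring 3 were. After quantile normalization the groups did not overlap for 4 members, Shank2, Dlg1, Dlg3 and Dlgap3, all higher in SAHA, where 19.8% of all genes did not overlap. After cyclic loess these 4 genes again did not overlap, at a background of 19.8%. After median centring 4 members did not overlap, with Shank2 higher and Dlg2, Dlgap1 and Dlgap2 lower, at a background of 25.3%. Without saline replicate 1 and SAHA replicate 3, 3 members did not overlap, Shank2 and Dlgap3 higher and Dlgap2 lower, where 42.3% of all genes did not. With cyclic loess on the same 4 arrays, Shank2, Dlg1, Dlg3 and Dlgap3 did not overlap, all higher, at a background of 40.3%. The direction of Shank1, Dlg1, Dlg3, Dlg4 and Dlgap1 flipped under at least 1 of these 3 scalings. Shank2, Shank3 and Dlgap3 were higher and Dlg2 and Dlgap2 lower under all 3. Some of these values were far smaller than their error, with Dlg2 at -0.00098 (SE 0.050) after cyclic loess. Dlgap2 was at -0.0063 (SE 0.068) after quantile normalization. With cyclic loess on the 4 arrays Dlg2 was at 0.0051.

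**Figure D4:**
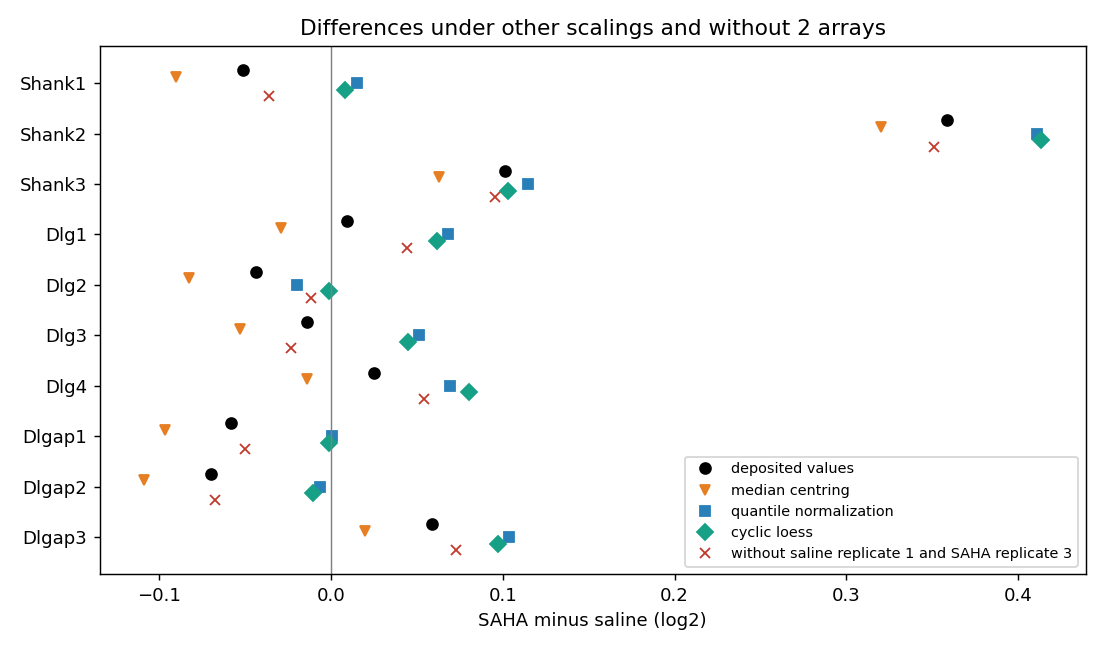
Difference in log2 signal, SAHA minus saline, of each scaffold gene on the deposited values, after 3 other scalings and without 2 arrays. Shank2, on its brightest probe set, lies between 0.32 and 0.41 in all 5, while Shank1, Dlg1, Dlg3, Dlg4 and Dlgap1 cross 0.

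Genes around these scaffolds were taken as 6 lists of binding partners, relatives, other PDZ scaffolds and palmitoylation enzymes, 50 genes in all, of which 48 were analysed here. Of the 48, 38 were lower and 10 higher in SAHA, with a median difference of -0.052. Over all genes of deciles 7 to 10 the median was -0.047 and 28.2% were higher, but some of the 48 lay in lower deciles. Against the median of their own decile, 21 of the 48 lay above it and 27 at or below it. The split of lower and higher genes moved with the scaling, in both directions. After quantile normalization 27 were lower and 21 higher, with a median of -0.0065, and after cyclic loess 25 and 23, with a median of -0.0026. After median centring 41 were lower and 7 higher, with a median of -0.091. Without both arrays named above 37 were lower and 11 higher, with a median of -0.034. At an unadjusted p under 0.05 lay 5 of them, 2 higher and 3 lower, where 11.9% of all genes were higher and 5.56% lower at that p. The groups did not overlap for 11 of the 48, 4 higher and 7 lower, where 23.9% of all genes did not overlap. limma with Benjamini-Hochberg adjustment called 0 of the 48 over all genes.

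Among family members outside the set, all 3 were higher in SAHA on the deposited values and after median centring, and 2 of 3 after quantile normalization. Of these, Dlgap5 had a low mean signal of 5.02. Its difference of 0.051 lay below the median of 0.11 over all genes in its decile of signal. Dlgap4, the remaining neuronal Dlgap, had log2 signals of 8.43, 8.46 and 8.47 in SAHA, against 8.33, 8.27 and 8.33 in saline. The groups did not overlap, at a difference of 0.14 (SE 0.055) and an adjusted p of 0.249 in limma. After quantile normalization it was 0.19, after median centring 0.10 and without both arrays named above 0.14, each time without overlap. Dlg5, a more distant relative found in many epithelia, differed by 0.041 (SE 0.060).

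The Homer proteins bind the proline-rich region of Shank and link it to metabotropic glutamate receptors. Homer1 had 10.28, 10.41 and 10.29 in SAHA, against 10.32, 10.28 and 10.53 in saline, with overlapping groups and a difference of -0.052 (SE 0.082), which was 0.0039 after cyclic loess. Homer2 differed by -0.076 (SE 0.064). Homer3 differed by 0.23 (SE 0.11), and its lowest SAHA array, at 6.998, lay just above its highest saline array, at 6.982. The groups overlapped after each of the 3 other scalings. Without both arrays named above Homer3 differed by 0.32 (SE 0.15) without overlap.

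Of 16 measured partners of the Dlg proteins, 14 were lower and 2 higher in SAHA, with a median of -0.057. The median of the decile medians of these genes was -0.051. After quantile normalization 9 were lower and 7 higher, and after median centring 15 were lower and 1 higher. Lgi1, the secreted ligand of Adam22 that ties it to Dlg4, had 10.42, 10.55 and 10.52 in SAHA, against 10.70, 10.69 and 10.60 in saline. Its groups did not overlap, at a difference of -0.17 (SE 0.064) and an adjusted p of 0.248 in limma, and it was -0.11 after quantile normalization. Cript, which binds a PDZ domain of Dlg4, differed by -0.18 (SE 0.084) with overlapping groups.

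The 9 partners of Shank and Dlgap proteins had a median of -0.019. It was 0.035 after quantile normalization and -0.058 after median centring, where 9 of the 9 were lower. On the deposited values the groups separated for 0 of the 9, where 23.9% of all genes did not overlap. Cttn (cortactin), the actin-binding partner of Shank, differed by -0.097 (SE 0.061). Arhgef7, a Rac exchange factor that binds Shank, differed by -0.10 (SE 0.070).

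Among 11 other PDZ scaffolds, 9 were lower and 2 higher, with a median of -0.055, where the median of their decile medians was -0.051. After quantile normalization 8 were lower and 3 higher, and after cyclic loess 6 were lower and 5 higher. After median centring 9 were lower and 2 higher, with a median of -0.094. Grip2, a scaffold of AMPA receptors, had 6.97, 6.93 and 7.08 in SAHA, against 6.71, 6.76 and 6.85 in saline. Its groups did not overlap, at a difference of 0.22 (SE 0.069) and an adjusted p of 0.193 in limma. Magi3, a multi-PDZ guanylate kinase, differed by -0.15 (SE 0.067) without overlap, and by -0.088 with overlap after quantile normalization.

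Enzymes of the palmitate cycle that holds Dlg4 at the membrane were lower for 6 of 6 genes, with a median of -0.077. The median of the decile medians of these genes was -0.050, and 28.2% of all genes in deciles 7 to 10 were higher in SAHA. After quantile normalization 5 of 6 were lower, with a median of -0.028, and after median centring 6 of 6, with a median of -0.12. Zdhhc15, a palmitoyltransferase, had 7.67, 7.78 and 7.58 in SAHA, against 8.01, 7.92 and 7.94 in saline. All SAHA arrays lay below all saline arrays, at a difference of -0.28 (SE 0.071) and an adjusted p of 0.145 in limma. Quantile normalization gave -0.25, cyclic loess -0.26 and the fit without both arrays named above -0.21, each time without overlap. Zdhhc2, a palmitoyltransferase of dendrites, had 9.68, 9.75 and 9.77 in SAHA, against 10.03, 9.89 and 9.85 in saline, and differed by -0.19 (SE 0.068), or by -0.13 after quantile normalization. The 3 depalmitoylases Abhd17a, Abhd17b and Abhd17c differed by -0.025, -0.098 and -0.057, all with overlapping groups.

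**Figure D5:**
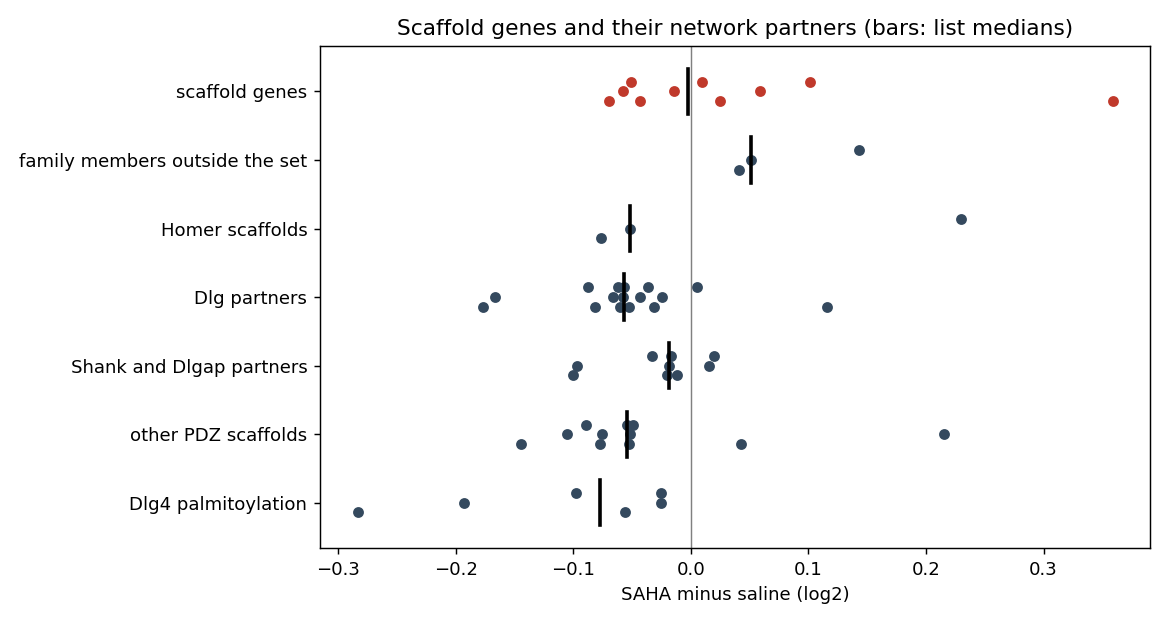
Difference in log2 signal, SAHA minus saline, of the 10 scaffold genes (red) and of the 48 measured partner genes in 6 lists (dark); each point is 1 gene and black bars are list medians. Shank2, on its brightest probe set, lies at 0.36, the highest of all genes shown, and Zdhhc15 at -0.28 the lowest. List medians other than that of the family members outside the set lie below 0 on these deposited values. They move toward 0 or above it after quantile normalization, and further below 0 after median centring.

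Markers of other cell types were read beside Shank2. Red cell markers were higher in SAHA for 3 of 3 measured, with mean log2 signals of 6.56, 6.29 and 6.45 in SAHA, against 6.20, 6.21 and 6.18 in saline. The SAHA arrays stood in the same order in these markers as for Shank2, with replicate 1 highest and replicate 2 lowest, but the saline arrays did not: saline replicate 3 was the lowest in these markers and the highest for Shank2. Slc4a1, the anion exchanger of red cells, differed by 0.38 (SE 0.084) without overlap. The red cell list median was 0.29, where the median of the decile medians of its genes was 0.098. It was 0.18 after quantile normalization. Without both arrays named above it was 0.36, with 2 of 3 higher. Myelin and oligodendrocyte markers were lower for 8 of 9, with mean signals of 8.46, 8.51 and 8.84 in SAHA, against 8.69, 8.70 and 8.73 in saline. SAHA replicate 3 was thus the highest array in myelin and the middle SAHA array for Shank2. The myelin list median was -0.13, where the median of the decile medians of its genes was -0.051. After quantile normalization the list median was -0.091, with 6 of 9 lower. After median centring it was -0.17, and without both arrays named above -0.25, each with 9 of 9 lower. Excitatory neuron, interneuron, astrocyte and microglia markers had list medians of -0.014, -0.015, -0.039 and -0.034, which after quantile normalization were 0.035, 0.044, 0.016 and -0.016. After median centring they were -0.053, -0.054, -0.078 and -0.073. Among excitatory neuron markers, Slc17a7 (0.11) and Nrgn (0.060) were higher and Neurod6 (-0.23) lower without overlap, where 23.9% of all genes did not overlap. Interneuron markers ran from -0.20 for Vip to 0.085 for Slc32a1. Choroid plexus markers were higher for 5 of 6, with a median of 0.12, where the median of their decile medians was 0.0997. The 1 lower gene was Ttr, at -0.29 (SE 0.34), with saline replicate 3 at 8.06. These markers were higher for 3 of 6 after quantile normalization and for 4 of 6 after median centring. The part of these cell types in the Shank2 value was not tested.

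For 1 gene of each family, the genes whose profile over the 6 arrays was most like it were looked up among 9959 other genes at or above the median signal, by Pearson's r. Shank3 was most like Gtpbp6 (r = 0.996) and Chpf (r = 0.990), both of which were also highest on SAHA replicate 1 and, among saline arrays, on replicate 2. Dlg4 was most like Plpp7 (r = 0.979) and Eps8 (r = 0.957). Dlgap3 was most like Lrch1 (r = 0.984) and Dolk (r = 0.983). With 6 arrays that share their scaling and so many genes searched, values this high describe likeness on these arrays only: 11, 7 and 17 genes passed an r of 0.95 for Shank3, Dlg4 and Dlgap3.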

How the data were processed

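The authors deposited log2 signals per probe set, made with Affymetrix Expression Console and RMA per the submitters' processing notes, with no version named; scan dates are not given in the sources used here. Of 35556 probe sets, 21789 pair with 1 symbol in the platform annotation, 1621 with several and 12146 with none. The brightest single-symbol probe set stood for each gene, and no per-sample column was unused (0). Titles gave the groups. A model of treatment was fitted with limma 3.58.1 (lmFit, eBayes; R 4.3.3), with neither block nor filter, over all 19938 genes, two-sided, with Benjamini-Hochberg adjustment and a threshold of 0.05. The fit was tested on simulated data with independent noise and planted differences larger than those of the members. That test does not speak to differences of the size reported here. Differences are SAHA minus saline. Individual probe sets were fitted among all single-symbol probe sets. The number of arrays limits the precision, at a median SE of 0.077. Members and lists were chosen with earlier results of these data known. Named by rule were all members, the 2 partners of smallest p in each list, Homer1 and Dlgap4 always, the sex-linked transcripts and the 2 genes most like Shank3, Dlg4 and Dlgap3. The Abhd17 genes, Dlgap5, Tac1, Slc4a1, Ttr and the single excitatory neuron and interneuron markers were named after their values were seen. Alternatives were other scalings, probe sets, filters, variance trends, array weights, the replicate block and arrays left out. Figures were drawn with matplotlib 3.10.9. Some items the rule and lists name are not reported here.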

Additional observations from a re-analysis of the deposited data

How the results depend on the processing

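With 3 arrays a group, the 95% intervals of the members other than Shank2 reached down to -0.21 and up to 0.33. The number of members at an unadjusted p under 0.05 was 1 on the deposited values, 1 in every fit that left out an array and 0 when the probe sets of a gene were averaged, where 17.4%, between 12.2% and 19.4%, and 17.4% of all genes lay under it. The number of members whose groups did not overlap was 1 on the deposited values, 4 after median centring, quantile normalization or cyclic loess, 3 without saline replicate 1 and SAHA replicate 3, 4 with cyclic loess without both, and between 2 and 3 with 1 array left out, where the groups of all genes did not overlap for between 31.1% and 41.2%. Of the partner genes 5 lay under that p on the deposited values, 3 after quantile normalization or cyclic loess, 8 with a variance trend or a robust trend, 1 without both arrays on either scaling, and between 2 and 5 with 1 array left out. The share of all genes under it moved as well, at 17.4% on the deposited values, 13.2% and 13.1% after quantile normalization and cyclic loess, 19.0% and 18.9% with the trends, 10.4% and 9.10% without both arrays and 15.5% with the block. With the replicate number as a block, 2 partner genes and 1 member lay under it, and Shank2 had an adjusted p of 0.203 in limma. The labels do not say that a replicate number marks a shared litter or day, so the numbers were not taken as pairs. Deviations of same-numbered arrays correlated at -0.10, -0.079 and 0.015 across all genes. Such a correlation does not speak to smaller sets of genes, and replicate 3 of each group was the highest in striatal markers. Signs turned as follows, always at adjusted p over 0.4 in limma. Median centring gave -0.029 for Dlg1 and -0.014 for Dlg4. Quantile normalization gave 0.015 for Shank1, 0.052 for Dlg3 and 0.00072 for Dlgap1, and cyclic loess 0.0084 for Shank1 and 0.045 for Dlg3. Without both arrays Dlg1 was at 0.044 and Dlg4 at 0.054, with no turn of sign. Cyclic loess without both arrays gave 0.0098 for Shank1, 0.0051 for Dlg2 and 0.020 for Dlg3. The mean of its probe sets gave 0.050 for Dlgap1, the dimmer probe set 0.16, and the dimmer Shank2 probe sets -0.018 and -0.056. With 1 array left out, Dlg1 ranged from -0.029 to 0.034, Dlg3 from -0.039 to 0.021 and Dlg4 from -0.0059 to 0.046. Shank3, Dlgap2 and Dlgap3 kept their direction in all 17 alternatives. Apart from what the text names, the cause of these shifts was not tested.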
